A study of Mus musculus with 12 samples.

Results

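Spleen T cells of B6.NODIdd1,5 mice were set against spleen T cells of B6 mice on 2 dual-colour arrays, titled S1 and S2, out of 12 arrays in the series. B6.NODIdd1,5 is a congenic strain: C57BL/6 (B6) mice that carry Idd1 and Idd5, intervals of the diabetes-prone NOD strain. Both arrays of that title were taken, and each value is the log2 ratio of the congenic sample to the B6 sample, after each array was centred on its median. The other groups used below have 2 arrays each as well: kidney cells of B6.NODIdd1,5 mice, measured against kidney cells of B6 mice, and spleen T cells of NOD mice, measured against B6 spleen T cells. The remaining 6 arrays, 2 a group, hold spleen T cells against B6 spleen T cells from NOD.H2h4 mice, a NOD strain named for another MHC haplotype, from B6 mice given NOD bone marrow (NODtoB6) and from NOD mice given B6 bone marrow (B6toNOD). They enter the estimate of the spread and, with the NOD arrays, a baseline of 4 groups set in place of B6 in 1 alternative. B6.NODIdd1,5 samples of both tissues carry both intervals, so the arrays do not separate Idd1 from Idd5. The sources used here do not give age, sex, disease state, how the T cells were isolated, the ends of the intervals or whether S1 and S2 come from different mice, so the p-values measure the spread between arrays, which may be technical.

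Idd1 lies in the major histocompatibility complex (MHC), whose class I and class II proteins present peptides to T cells, and it holds the strongest genetic contribution to diabetes in NOD mice. Idd5 lies on another chromosome, in a stretch with the genes of the T cell costimulatory receptors CD28, CTLA-4 and ICOS and of the phagosomal metal transporter SLC11A1. Congenic strains are made by repeated backcrossing, so that a tissue of the congenic mouse and the same tissue of the recipient strain differ mainly in the transferred intervals, and a difference in RNA can come from a gene in an interval, from its targets elsewhere, or from a change in the cells sampled. In a bulk RNA sample fewer cells of a type and less RNA per cell cannot be told apart.

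The congenic sample was labelled with Cy5 and the B6 sample with Cy3 on both arrays, per the labels, with no dye exchange named, so a dye preference of a single probe does not cancel in a mean ratio. The deposited medians were -0.23 on S1 and -0.16 on S2, and centring set both to 0. Every higher or lower is therefore relative to the typical probe of the array. S1 had values for 19041 and S2 for 19091 of 20736 probes. The mean of the 2 arrays was tested against 0 in a limma fit over all 12 arrays, which takes the spread of a feature over the 6 pairs of arrays, with Benjamini-Hochberg adjustment and a threshold of 0.05 on the adjusted p. A ratio set against 0 leaves out the spread between B6 samples.

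Of 14705 features with a value on both arrays, 2303 were higher (15.7%) and 2318 were lower (15.8%) in congenic T cells than in B6 T cells, which is 31.4% in either direction. A feature is a gene or, where a probe has no single gene symbol, that probe. Among the 7995 named genes, 935 were higher (11.7%) and 1442 were lower (18%), together 29.7%. These shares are the background for each gene group that follows. On the deposited values without centring the features called split into 1039 higher and 2839 lower. Of the genes named in the rest of the Results 23 higher and 0 lower ones were not past the threshold on that scale: Aamp, Agpat1, B3galt4, Cdc37, Csf3r, Edem1, Eif2b1, Eif2b5, Entpd5, Fau, Fos, Klf2, Klrk1, Lif, Ltf, Ly6e, Mdc1, Miox, Pdcd4, Prpf4b, Rpl38, Rpl39 and Umod. Trim25 and Arpc4, higher genes named only in the closing section, were not past it either (adjusted p = 0.682 and 0.144 in the limma fit). A change of at least 1 on the log2 scale, or 2-fold, was reached by 385 of the higher and 498 of the lower named genes, and a change of at least 2 by 119 and 51. In a fit on the 2 arrays alone no feature passed the threshold and 4673 had an unadjusted p under 0.05, against 6210 in the fit over 12 arrays, so the calls rest on the pooled spread. Every named gene past the threshold had the same sign on both arrays. The arrays agreed only in part: 78.9% of features had the same sign on both, the median gap between the 2 values of a feature was 0.167, 14.5% of features lay more than 1 apart, and Pearson's r across features, which are not independent, was 0.505. In the pair of NOD T cell arrays 1.37% of features lay more than 1 apart and in the pair of congenic kidney arrays 4.97%.

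**Figure D1:**
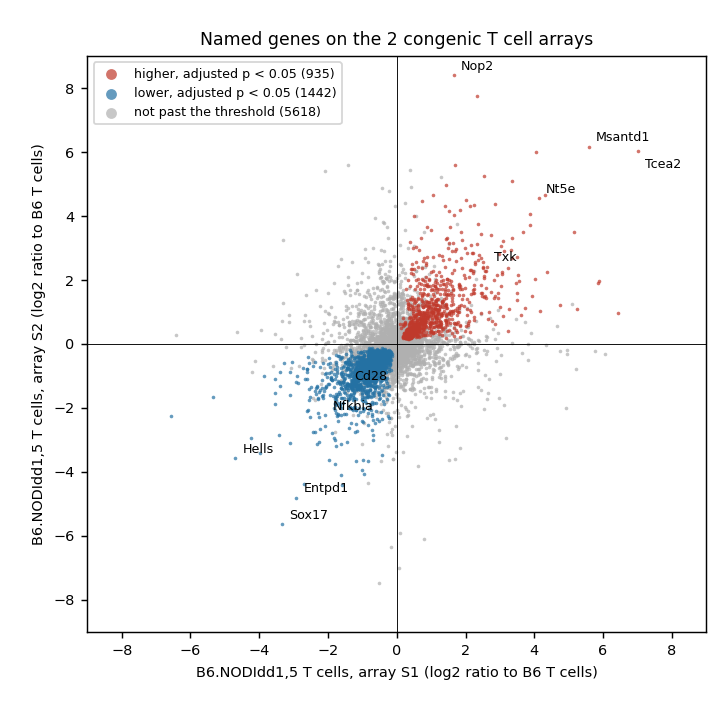
Log2 ratio of B6.NODIdd1,5 T cells to B6 T cells on array S1 (x axis) and array S2 (y axis), with 1 point for each of 7995 named genes, coloured by the result of the limma test. The genes past the threshold lie in the quadrants where both arrays have the same sign, and genes such as Nop2 sit far from 0 on 1 array and much nearer to it on the other.

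The largest increases were spread over genes of unlike function, with the ectoenzyme gene Nt5e as one with a known role on T cells. Tcea2, a transcription elongation factor gene, was at 7.02 and 6.02 on S1 and S2. Its mean was 6.52 ± 0.51 (SE of the fit, n = 2 arrays, adjusted p = 0.000268). Msantd1, which encodes a protein with a Myb/SANT-like domain, was at 5.58 and 6.17, a mean of 5.88 ± 0.14 (adjusted p = 6.58e-07). Every ± here and below is an SE from the spread pooled over the pairs of arrays, not the replicate error of S1 and S2. Such an SE can be smaller or larger than S1 and S2 alone would give, and is smaller for Msantd1. Nxph3, a neurexophilin gene, was at 4.04 and 5.99, and Tanc1, a scaffold protein gene of synapses, at 4.31 and 4.65. On both arrays these 4 genes were at least 4 log2 units above B6, while their values in congenic kidney ran only from -1.20 to 1.94 and in NOD T cells from -0.27 to 0.65. Nt5e, which encodes the ecto-5'-nucleotidase CD73, was at 4.13 and 4.55, and Pxdn, a peroxidase gene of the extracellular matrix, at 5.15 and 3.49. Snx14, a sorting nexin gene, was at 3.34 and 5.09 and Fam76b at 3.89 and 4.06. Synrg, an adaptor gene of clathrin-coated vesicles, was at 3.87 and 3.71, with adjusted p = 0.0526 without S1. In 6 of the 15 genes with the highest means the value of 1 array was more than 2 times that of the other. Nop2, a ribosomal RNA methyltransferase gene, was at 1.65 and 8.41 and lost its call without S2 (adjusted p = 0.399 without S2). F3, the gene of tissue factor, was at 6.43 and 0.96, with a call that ended in 10 alternatives, among them the spleen T cell arrays alone (adjusted p = 0.0749). Commd9, an adaptor gene of endosomal sorting, was at 2.35 and 7.75. Rtcb, the tRNA ligase gene, was at 5.87 and 1.96, and the unnamed transcript 5430401F13Rik at 5.84 and 1.89. Atxn2, which encodes an RNA-binding protein, was at 2.53 and 5.24. Each of these 15 genes was read by 1 probe.

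Among the genes with the largest decreases were Hells, a chromatin remodelling helicase gene of dividing lymphocytes, and Entpd1, which encodes the ectonucleotidase CD39. Hells was at -4.70 and -3.58, a mean of -4.14 ± 0.25 (adjusted p = 4.31e-05). Entpd1 was at -2.92 and -4.81, a mean of -3.86 ± 0.43 (adjusted p = 0.000596). Both lay near 0 in NOD T cells, at 0.16 and -0.21 for Hells and -0.07 and 0.25 for Entpd1. Crkl, an adaptor gene of T cell receptor and cytokine signalling, was at -3.98 and -3.40 in congenic T cells, at -2.93 and -3.70 in congenic kidney and at -2.72 and -2.32 in NOD T cells, low on all 6 arrays. Sox17, an endodermal and endothelial transcription factor gene on chromosome 1, was at -3.33 and -5.64, with adjusted p = 0.0967 without S2. Hdac6, the cytoplasmic tubulin deacetylase gene, was at -6.57 and -2.25, and Srpx, a sushi repeat protein gene, at -4.25 and -2.95. Both arrays placed these 3 genes below B6, with their pairs of values over 1 log2 unit apart. Elovl1, a fatty acid elongase gene, was at -2.71 and -4.38 and in kidney at -2.50 and -3.33. Pld1, a phospholipase D gene, was at -1.80 and -3.75 and in kidney at -2.80 and -2.91, and its call ended without S2 (adjusted p = 0.288 without S2). Lrsam1, a ubiquitin ligase gene, was at -1.61 and -4.11 and in kidney at -2.25 and -2.08. For Elovl1, Pld1 and Lrsam1 the T cell and kidney values overlapped. Pigf, a gene of glycosylphosphatidylinositol anchor synthesis on chromosome 17, differed in direction: it was at -1.96 and -3.64 in T cells and at 1.43 and 2.10 in kidney. Tbc1d19 was at -2.33 and -3.12, 4930578I06Rik at -3.44 and -2.85, Rpap2 at -1.61 and -4.42 (adjusted p = 0.0562 without S2), Slc7a6os at -5.35 and -1.66, and Cyp11b1, a steroid hydroxylase gene of the adrenal cortex, at -3.11 and -3.11. These 15 genes had 1 probe each on the array, apart from Pld1 and Pigf with 2 each.

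Part of the decreases in T cells, and a smaller part of the increases, was also seen in congenic kidney. Of 489 named genes that were called lower by at least 1 in congenic T cells and had values on both kidney arrays, 75 were also lower by at least 1 on both kidney arrays, or 15.3%, and 1 was higher by at least 1 on both. These 75 are 29.8% of the 252 genes that were so low in kidney. Over all 7931 named genes with values in both tissues, 3.18% were that low in kidney. Of 375 genes called higher by at least 1 in T cells, 8 were also that high in kidney, or 2.13%. Over all 7931 named genes with values in both tissues, 0.567% were that high in kidney. These 8 are 17.8% of the 45 genes that high in kidney, and 11 of the 375 (2.93%) were that low. The 2 tissues were measured against B6 RNA of their own tissue but share the strain, the direction of the dyes and the kind of array, and the part of each in this overlap was not tested.

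For the Idd1 region, 49 genes of the list are on the array and 48 were tested. Of these 5 were higher and 12 lower, or 35.4% called against 29.7% of named genes, and their median was 0.10 against -0.06 for named genes. Without S2 the calls came to 3 higher and 7 lower, and on the deposited values to 1 higher and 13 lower. The class II genes themselves gave no call: H2-Aa was at 0.003 and 0.98 (adjusted p = 0.167) and H2-Eb1 at -0.29 and -0.10 (adjusted p = 0.413). H2-Aa was near 0 on 1 array and high on the other. H2-Ab1, H2-K1 and H2-D1 are not analysed here. Probes made from one MHC haplotype can bind the transcripts of another to a different degree, and class I and class II probes can bind RNA of related genes. H2-DMa, a chain of the peptide exchange factor of class II molecules, fell: it was at -1.26 and -0.88, a mean of -1.07 ± 0.13 (adjusted p = 0.000845), and in kidney at -1.03 and -0.84, with no difference between the tissues past the threshold (adjusted p = 0.68). The largest decreases of the list were in genes outside antigen presentation. Skiv2l, an RNA helicase gene of the exosome, was at -1.78 and -1.92, a mean of -1.85 ± 0.25 (adjusted p = 0.00144). Rgl2, a Ral guanine nucleotide exchange factor gene, was at -1.40 and -1.25, a mean of -1.33 ± 0.07 (adjusted p = 1.95e-05), while both kidney values lay above 0 at 0.10 and 0.15. Stk19 was at -1.18 and -0.76 in T cells and at -0.85 and -0.77 in kidney, and Neu1, the lysosomal sialidase gene, at -0.65 and -1.03 in T cells and at -0.13 and -0.04 in kidney. A probe of Neu1 lay near 0 in T cells, at -0.05 and -0.10. Bag6, a chaperone gene of tail-anchored proteins, rose the most, at 1.57 and 1.23, a mean of 1.40 ± 0.22 (adjusted p = 0.0029). The other increases were of 0.6 or less on the mean: B3galt4, a glycosyltransferase gene, was at 0.66 and 0.42 (adjusted p = 0.271 without S1 and 0.0901 without S2), Mdc1, a DNA damage checkpoint gene, at 0.40 and 0.46 (adjusted p = 0.0612 without S2), and Agpat1, an acyltransferase gene, at 0.38 and 0.33 (adjusted p = 0.131 without S1 and 0.0864 without S2).

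For the Idd5 region, 70 genes of the list are on the array and 61 were tested, of which 6 were higher and 12 lower. That is 29.5% called, next to 29.7% of named genes, and without S1 the higher calls came to 3. Cd28, the costimulatory receptor gene and a candidate gene of this interval, fell: it was at -1.45 and -1.29 in congenic T cells, a mean of -1.37 ± 0.10 (adjusted p = 8.33e-05), against 0.76 and 0.42 in NOD T cells, whose values lie above 0. In congenic kidney the Cd28 probe was also below 0, at -1.11 and -1.24, and the difference between T cells and kidney did not pass (adjusted p = 0.367). Icos was at 0.29 and 0.27, close on both arrays, and did not pass (adjusted p = 0.784). Ctla4 and Slc11a1 are not analysed here. Tuba4a, an alpha tubulin gene, had the lowest mean of the list at -2.36 and -2.75, and the kidney values overlapped it at -2.35 and -2.62. Atic, the last enzyme of purine synthesis, was at -1.72 and -2.19 in congenic T cells and in NOD T cells at -4.79 and -2.51, with a call that ended without either congenic array (adjusted p = 0.114 without S1 and 0.189 without S2). Ankzf1, a ribosome quality control gene, was at -1.43 and -1.74, but as the mean of 3 probes that disagreed, at 0.35, -3.93 and -0.70 on S1 and at -3.49 and 0.01 for the 2 with a value on S2. Rpe, of the pentose phosphate pathway, was at -3.27 and -0.58, with 1 probe at -6.74 on S1, and lost its call without S1 (adjusted p = 0.448 without S1). Arpc2, a subunit of the actin-nucleating Arp2/3 complex, was at -1.07 and -0.74 in T cells, while kidney was near 0 at -0.02 and -0.05. Orc2, a subunit of the origin recognition complex, was at 2.07 and 0.67 and lost its call without S1 (adjusted p = 0.0569 without S1). Its 3 probes ran from -0.06 to 4.75. Abi2, an adaptor gene of actin assembly, was at 0.81 and 0.79 in T cells and 0.59 and 0.61 in kidney, Stk36 at 0.81 and 0.63, and Aamp at 0.59 and 0.48 (adjusted p = 0.0935 without S1). Chromosomes 1 and 17 as wholes did not stand out in this count: 66 of 462 tested genes on chromosome 1 were higher and 74 lower, 30.3% called, and 42 of 366 on chromosome 17 were higher and 73 lower, 31.4%. The chromosomes with at least 192 tested genes ran from 25% to 33.4%.

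**Figure D2:**
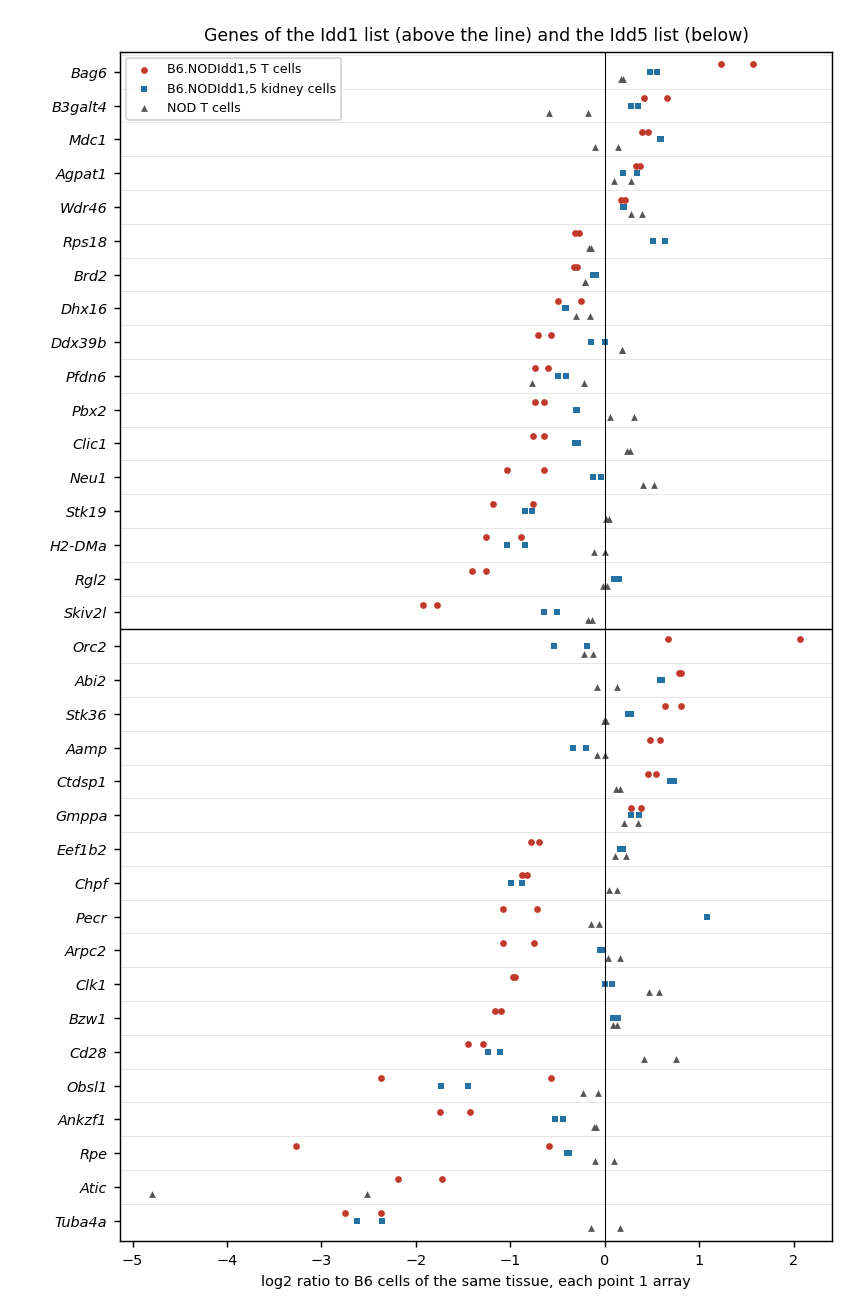
Log2 ratio to B6 cells of the same tissue (x axis) for the genes of the Idd1 list (above the line) and the Idd5 list (below it) that passed the threshold in B6.NODIdd1,5 T cells, with 1 point for each array of B6.NODIdd1,5 T cells, B6.NODIdd1,5 kidney cells and NOD T cells. Cd28, Tuba4a, H2-DMa and Stk19 are low in both congenic tissues, while Rgl2, Arpc2, Clk1 and Bzw1 are low in congenic T cells and near 0 in kidney.

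Of 21 tested genes of T cell identity and T cell receptor signalling, 2 were higher and 7 lower in congenic T cells, 33.3% lower against 18% of named genes, with a median of -0.18 in T cells and of -0.38 in congenic kidney. The lower calls came to 3 without S1, 4 without S2 and 4 on the spleen T cell arrays alone, and 1 was higher without S1 or without S2. Cd247, the zeta chain of the CD3 complex, was at -1.97 and -0.45, with the larger drop on S1, and lost its call without that array (adjusted p = 0.145 without S1). Fyn, a Src family kinase gene that acts at the receptor, was at -1.03 and -0.64 (adjusted p = 0.0693 without S1). Ptpn6, which encodes the inhibitory phosphatase SHP-1, was at -0.89 and -1.09, a mean of -0.99 ± 0.08 (adjusted p = 0.000151). All 3 were below 0 on both arrays, against values above or near 0 in NOD T cells, and Fyn was also low in kidney at -1.12 and -0.89. The 2 probes of Cd247 differed, with means over the arrays of -2.14 and -0.28, so its decrease rests mostly on 1 probe. Txk, a Tec family kinase gene of T cells, went the other way with 2.63 and 2.42, a mean of 2.52 ± 0.16 (adjusted p = 0.000319), and was near 0 in kidney at 0.07 and 0.09. Klf2, a transcription factor gene of resting and migrating T cells, was slightly higher at 0.32 and 0.26 (adjusted p = 0.108 without S1 and 0.0541 without S2), and Ccr7, the lymph node homing receptor gene, slightly lower at -0.42 and -0.33 (adjusted p = 0.151 without S1 and 0.0817 without S2). The genes Il7r, at 0.21 and 0.27, Lef1, at 0.08 and -0.03, Gata3, at 0.03 and -0.38, and Lcp2, at -0.29 and 0.06, did not pass. The defining genes Cd3e, Cd4, Cd8a, Lck, Zap70 and Thy1 are not analysed here, and a ratio holds no level, so the cell type in the labels could not be checked against the presence of these markers. Of 10 genes of activation and regulatory T cells 1 was lower: Cd200, an inhibitory ligand gene, at -0.67 and -0.71 in congenic T cells and 0.69 and 0.64 in kidney, against 3.57 and 3.73 in NOD T cells. Of 7 genes proposed for other Idd loci 1 was higher and 1 lower. Nrp1, a receptor gene found on thymus-derived regulatory T cells, was higher at 1.62 and 1.45, a mean of 1.54 ± 0.14 (adjusted p = 0.000256), which rests on 1 of its 2 probes, since the other was at 0.48 on S1 and -0.43 on S2. B2m, the light chain of class I MHC molecules, was lower at -0.95 and -0.34 (adjusted p = 0.195 without S1).

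NF-kappaB is a transcription factor family that T cell receptor and CD28 signals activate by way of the degradation of its inhibitor, and the inhibitor gene Nfkbia is itself one of its targets. In congenic T cells Nfkbia fell to -2.07 and -2.23, a mean of -2.15 ± 0.07 (adjusted p = 4.93e-06), against -0.11 and -0.27 in kidney and 0.40 and 0.38 in NOD T cells. No value of either other group came within 1.5 of the T cell values. Map3k14, which encodes the kinase NIK of the non-canonical pathway, was at -1.40 and -1.38 in T cells and -1.02 and -1.02 in kidney. Map3k7, which encodes the kinase TAK1, was at -0.72 and -0.63, and Nfkbiz, a nuclear inhibitor family gene, at -0.57 and -0.77. The 2 probes of Nfkbiz had means over the arrays of -1.19 and -0.15. Tnip1, which encodes an inhibitor that binds A20, rose to 1.48 and 1.56, a mean of 1.52 ± 0.08 (adjusted p = 1.91e-05), with NOD T cells also above 0 at 0.82 and 1.0. Over the list, 1 of 15 tested genes was higher and 6 were lower, with a median of -0.50 over the list, -0.56 on S1 and -0.24 on S2, and the lower calls came to 4 without S1 and 4 without S2. The subunit gene Rela, at 0.05 and 0.09, and the kinase genes Ikbkb, at -0.17 and -0.24, and Ikbkg, at 0.15 and 0.17, did not pass.

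Nfkbia, which fell, and Tnip1, which rose, both have a kappaB motif just upstream of their start in the mouse genome. The 120 bases before the RefSeq start of each (GRCm38.p6, minus strand) are printed with the motif in capitals, at chr12:55492648-55492767 for Nfkbia and chr11:54962941-54963060 for Tnip1, since these are the genes of the list with the lowest and the highest mean.
Nfkbia: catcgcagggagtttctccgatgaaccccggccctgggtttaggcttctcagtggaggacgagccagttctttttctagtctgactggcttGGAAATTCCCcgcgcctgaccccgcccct
Tnip1: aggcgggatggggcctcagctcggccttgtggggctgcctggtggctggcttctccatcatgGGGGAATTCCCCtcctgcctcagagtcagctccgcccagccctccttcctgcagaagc
The motif searched was GGGNNNTTCC or its complement on the other strand, GGAANNNCCC. It occurs 1 time in the Nfkbia stretch and 2 times, as overlapping matches on the 2 strands, in that of Tnip1. Of 27025 genes with a promoter of 300 bases in the table, 6.31% hold it, and 4 of the 13 NF-kappaB list genes with a promoter do. A match is a description of the sequence and says nothing of binding in these cells.

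Immediate-early genes are switched on within minutes of receptor signals without new protein synthesis. The list used here also holds genes of another kind, such as the antiproliferative Btg1 and Klf2, named above for resting T cells. Its counts thus do not measure that response alone. Klf2 was called higher, at 0.32 and 0.26. Of 21 tested, 3 were higher and 7 lower in congenic T cells, 33.3% lower, with a median of -0.34, and without S1 the higher calls came to 1. Among the decreases were Btg1, an antiproliferative gene, at -1.19 and -1.29, a mean of -1.24 ± 0.08 (adjusted p = 4.36e-05), and Dusp1, a MAP kinase phosphatase gene, at -1.12 and -0.96, a mean of -1.04 ± 0.07 (adjusted p = 5.95e-05). Gadd45g, a stress sensor gene, was at -0.98 and -0.97, and Klf4 at -1.08 and -0.78 (adjusted p = 0.0746 without S1). For Btg1, Dusp1 and Gadd45g the T cell values lay below every kidney value, the nearest being -0.57 and -0.57 for Dusp1. Of the AP-1 subunit genes, Jun was higher at 0.86 and 0.54 as the mean of 2 probes that disagreed, at 1.27 and 0.44 on S1 and at -0.88 and 1.96 on S2. Fos was higher at 0.42 and 0.37 (adjusted p = 0.0532 without S1). Fosl1, at 1.15 and -0.36, and Fosl2, at -0.57 and -0.35, did not pass. In NOD T cells Jun and Fos were below 0, at -0.27 and -0.31 for Jun and -0.95 and -0.86 for Fos. Of 36 genes of MAP kinases and their phosphatases, 2 were higher and 9 lower, with none higher without S1. Map2k5, the kinase gene upstream of ERK5, was at 1.81 and 1.89 but lost its call without either array (adjusted p = 0.129 without S1 and 0.138 without S2). Mapk8ip3, a JNK scaffold gene, was at -1.90 and -1.02.

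Extracellular ATP is broken down by CD39 to AMP and by CD73 to adenosine, which restrains T cells through its receptors. The genes of these 2 enzymes moved far apart in congenic T cells: Nt5e (CD73) was at 4.13 and 4.55, a mean of 4.34 ± 0.39 (adjusted p = 0.001), and Entpd1 (CD39) at -2.92 and -4.81. In kidney both were between -1 and 0, at -0.86 and -0.61 for Nt5e and -0.56 and -0.47 for Entpd1. Nt5c2, a cytosolic 5'-nucleotidase gene, was at 2.94 and 1.60, a mean of 2.27 ± 0.26 (adjusted p = 0.000653). Slc29a1, the equilibrative adenosine transporter gene, was lower at -2.91 and -1.01 (adjusted p = 0.234 without S1), and Ampd3, an AMP deaminase gene, was lower at -1.01 and -0.98, a mean of -0.99 ± 0.12 (adjusted p = 0.000812). Entpd5, an endoplasmic reticulum member of the CD39 family, was at 1.12 and 1.93, and Entpd2 at -0.42 and -2.34, with calls that ended without S2 (adjusted p = 0.213 without S2; adjusted p = 0.352 without S2). Ada, adenosine deaminase, was at 0.24 and 0.29 and Adk, adenosine kinase, at 4.94 and -0.19, opposite in sign on its 2 arrays, and neither passed. Of 21 tested genes of this group 3 were higher and 5 lower, with 3 lower without S2.

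**Figure D3:**
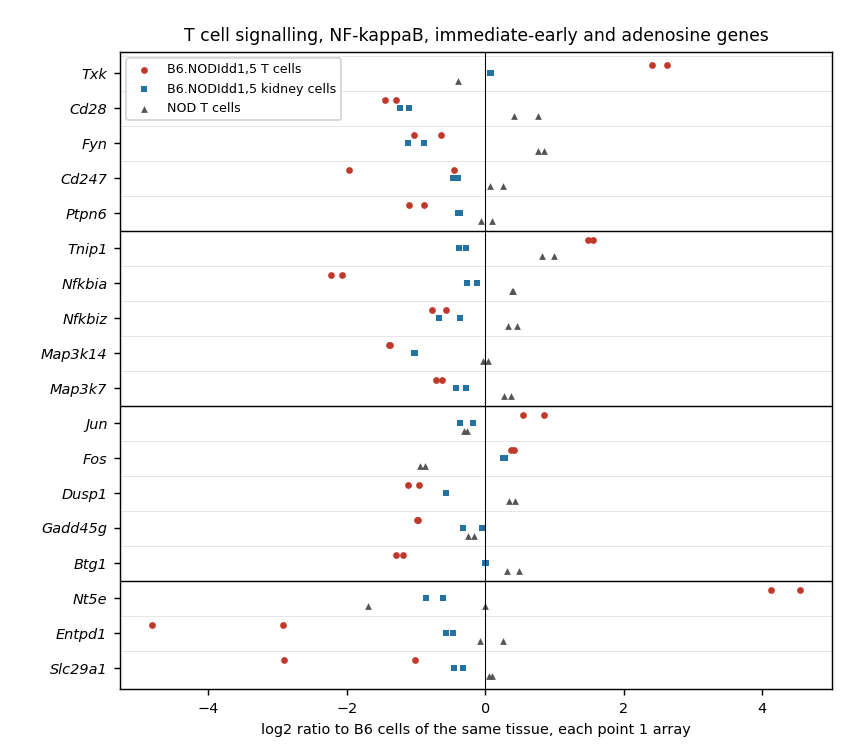
Log2 ratio to B6 cells of the same tissue (x axis) for genes of T cell signalling, NF-kappaB, the immediate-early response and adenosine (from top to bottom), with 1 point for each array of B6.NODIdd1,5 T cells, B6.NODIdd1,5 kidney cells and NOD T cells. Nt5e and Entpd1 lie on opposite sides in congenic T cells, Nfkbia is below -2 on both congenic T cell arrays and between -0.27 and 0.40 on the other 4, and Cd28, Fyn and Map3k14 are low in kidney as well.

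Genes of cytokine and interferon signalling stayed near the background. Of 26 cytokine and receptor genes 4 were higher and 5 lower, with 1 higher without S1 and 3 lower without either array. Il4ra, a chain of the interleukin-4 receptor, was at 0.62 and 0.56, a mean of 0.59 ± 0.07 (adjusted p = 0.000995), and Lif, a cytokine gene of the interleukin-6 family, at 0.82 and 0.67 (adjusted p = 0.163 without S1 and 0.096 without S2). Il18 was lower at -0.68 and -1.31 and Kit, the stem cell factor receptor gene, at -1.34 and -0.62 (adjusted p = 0.105 without S1). Of 16 genes of JAK kinases, STATs and SOCS proteins none was higher and 4 were lower, with 3 higher without S1 and 2 lower without S2. Jak1, a kinase of most cytokine receptors, was at -0.80 and -0.42 (adjusted p = 0.0709 without S1), Stat2, of type I interferon signalling, at -0.62 and -1.36, and Cish, a feedback inhibitor, at -0.77 and -1.29 (adjusted p = 0.146 without S2). Of 26 interferon response genes 4 were higher and 6 lower, and without S1 none was higher and 2 were lower. Ifitm3, an antiviral membrane protein gene, was at -1.12 and -1.36, a mean of -1.24 ± 0.10 (adjusted p = 0.000126), and Irf8 at -1.14 and -1.32 (adjusted p = 0.0508 without S1 and 0.0768 without S2), while Bst2, which encodes tetherin, was at 1.40 and 0.74 (adjusted p = 0.0874 without S1) and Ly6e at 0.77 and 0.46 (adjusted p = 0.0693 without S1). The group holds decreases and increases side by side. Among 11 chemokines and receptors Ccr7 was the 1 lower gene and Ccl9 the 1 higher gene, at 1.55 and 3.65, a mean of 2.60 ± 0.47 (adjusted p = 0.00526), with 3 higher without S1.

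Ribosomal protein genes were called lower in 32 of 70, by small steps, while 34 did not pass. Over the cytosolic ribosome 45.7% were lower and 4 genes were higher, against 18% and 11.7% of named genes, with a median of -0.20 over the list and of -0.19 on S1 and -0.21 on S2. Rpl5 was the 1 member with a mean below -1. Without S1 or without S2 the lower calls came to 20, and without S1 the higher calls came to 1. Rpl5 was at -1.02 and -1.11 in congenic T cells, a mean of -1.06 ± 0.07 (adjusted p = 6.63e-05), and at 0.12 and -0.02 in kidney. Rpl7a was at -0.97 and -0.98 in T cells and 0.09 and 0.06 in kidney, and Rpl4 at -0.88 and -0.88 in T cells and 0.18 and 0.16 in kidney. Rpl3 was at -0.58 and -0.72, a mean of -0.65 ± 0.06 (adjusted p = 0.000358). On both arrays these 4 large subunit genes were below B6, and no kidney value was as low. The 4 increases were Rpl36, at 1.44 and 0.68, Rpl38, at 0.35 and 0.26 (adjusted p = 0.121 without S1), Rpl39, at 0.29 and 0.29 (adjusted p = 0.0761 without S1 and 0.0677 without S2), and Fau, whose product carries ribosomal protein S30, at 0.31 and 0.25 (adjusted p = 0.0991 without S1). In the difference between T cells and kidney, 47 of the 70 were lower in T cells and none higher, where 10.6% of named genes were lower. The kidney median of the list was 0.37. That count depends on the centring: on the deposited values 13 of the 70 were lower in T cells and 1 higher.

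Transcripts of most ribosomal proteins begin with a run of pyrimidines, the 5' terminal oligopyrimidine motif, through which growth signals set their translation. The bases from 25 before to 15 after the RefSeq start (GRCm38.p6, plus strand) are printed for 3 of the lowest genes and for Fau, with a run of at least 8 pyrimidines that opens with C in capitals: Rpl5 at chr5:107900503-107900542, Rpl7a at chr2:26910782-26910821, Rpl4 at chr9:64173362-64173401 and Fau at chr19:6057922-6057961.
Rpl5: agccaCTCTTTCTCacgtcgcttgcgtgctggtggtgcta
Rpl7a: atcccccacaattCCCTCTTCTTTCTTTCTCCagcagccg
Rpl4: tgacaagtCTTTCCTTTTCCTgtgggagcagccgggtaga
Fau: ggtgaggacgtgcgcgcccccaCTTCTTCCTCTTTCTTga
Such a run within 20 bases of the start, on the sense strand, was found for 28 of the 56 ribosomal protein genes with a promoter in the table (50%), for 11 of 45 translation factor genes (24.4%) and for 14.5% of all 27025 genes. In Rpl7a, which fell, and Fau, which rose, the run spans the RefSeq start. In Rpl5 and Rpl4, which fell, it ends before that start and so lies outside the annotated transcript.

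**Figure D4:**
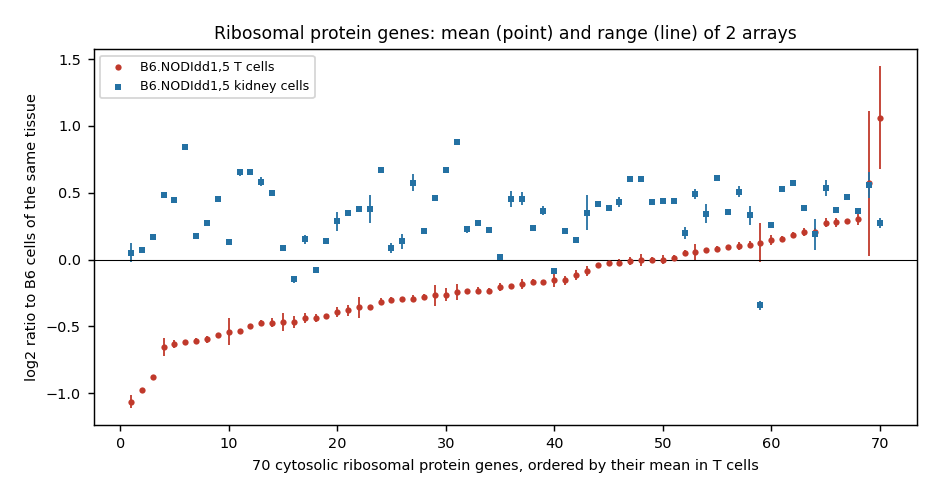
Log2 ratio to B6 cells of the same tissue (y axis) for 70 cytosolic ribosomal protein genes, ordered along the x axis by their mean in B6.NODIdd1,5 T cells, with points for the mean and lines for the range of the 2 arrays of B6.NODIdd1,5 T cells and of B6.NODIdd1,5 kidney cells. Most kidney values lie above 0 and above the T cell value of the same gene.

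Genes of the factors that run translation were lower in a similar share. Of 56 tested translation factor genes 26 were lower (46.4%) and 5 higher, with a median of -0.34, and on the deposited values 29 were lower and none higher. Eif2b2, a subunit of the exchange factor that recycles eIF2, was at -1.58 and -1.42, a mean of -1.5 ± 0.21 (adjusted p = 0.00185), while Eif2b1, at 0.62 and 1.02 (adjusted p = 0.111 without S2), and Eif2b5, at 1.15 and 0.57 (adjusted p = 0.253 without S1), subunits of the same complex, were higher. Eif3c, a subunit of the initiation factor eIF3, was at -1.73 and -0.90, Eif4h, a helper of the eIF4A helicase, at -1.02 and -1.71, and Eif4ebp2, an inhibitor of the cap-binding protein, at -1.06 and -1.36, a mean of -1.21 ± 0.13 (adjusted p = 0.000444). The probes of Eif4h differ in sign. Outside the naming rule and chosen after its values were seen, Eef1a1, the elongation factor that delivers tRNAs, was at -1.12 and -1.11 in T cells and at 0.58 and 0.52 in kidney, on opposite sides of 0. Of 25 aminoacyl-tRNA synthetase genes 5 were lower and none higher, with 2 lower without S2, and Tars2, the mitochondrial threonyl-tRNA synthetase gene, was at -1.05 and -1.05. Of 47 genes of the mitochondrial ribosome 7 were higher and 6 lower, with a median of -0.03, and without S2 the calls came to 4 and 3. Mrpl57 was at 2.23 and 1.60, a mean of 1.91 ± 0.26 (adjusted p = 0.00257), and Mrpl35 at -1.54 and -2.19, a mean of -1.86 ± 0.22 (adjusted p = 0.000836).

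Of 65 tested nuclear genes of oxidative phosphorylation 18 were lower (27.7%) and 3 higher, with a median of -0.14 in T cells and 0.31 in kidney. Set against the mean of the other 4 spleen T cell groups in place of B6, 34 were lower, and without S1 the higher calls came to 5. In complex I, Ndufv1 was at -1.39 and -1.72, a mean of -1.55 ± 0.13 (adjusted p = 0.000163), Ndufb9 at -1.80 and -1.09, and Ndufc2 the other way at 3.56 and 1.96, a mean of 2.76 ± 0.32 (adjusted p = 0.000718). Sdhd of complex II was at -1.26 and -1.32, a mean of -1.29 ± 0.09 (adjusted p = 7.49e-05), and Sdhb of the same complex at 0.63 and 1.20 (adjusted p = 0.111 without S2). Uqcrc2 of complex III was at -1.29 and -1.24, and Cycs, cytochrome c, at -0.95 and -0.75, against 0.26 and 0.28 in kidney. Of 35 genes of glycolysis and the citric acid cycle 4 were higher and 9 lower, and on the deposited values 14 were lower. Pgam1, phosphoglycerate mutase, was at -1.08 and -1.29, a mean of -1.19 ± 0.10 (adjusted p = 0.00015), Tpi1, triosephosphate isomerase, at -1.01 and -0.94, and Ldhb, a lactate dehydrogenase subunit, at -1.41 and -1.70, a mean of -1.55 ± 0.16 (adjusted p = 0.000433). Aco1, cytosolic aconitase and iron sensor, rose to 2.48 and 1.60, a mean of 2.04 ± 0.22 (adjusted p = 0.000577). Of 22 mitochondrial import genes 6 were lower and none higher, among them Timm17a, a channel subunit, at -1.64 and -0.45 (adjusted p = 0.0675 without S1). Enzymes against oxidants were lower in 11 of 32 (34.4%) and higher in 2, with 4 higher without S2. Gsr, glutathione reductase, was at -1.13 and -1.40, a mean of -1.26 ± 0.09 (adjusted p = 8.52e-05), and Txnrd1, thioredoxin reductase, at -0.84 and -2.14. Gpx3 was at -1.49 and -1.37 (adjusted p = 0.0667 without S1 and 0.0507 without S2) and Gpx1, another glutathione peroxidase gene, the other way at 0.69 and 0.92, a mean of 0.81 ± 0.10 (adjusted p = 0.00116), which turned to -0.91 against the mean of the other 4 spleen T cell groups.

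Protein folding genes fell more often than they rose. Of 61 heat shock proteins and chaperones 19 were lower (31.1%) and 4 higher, with 1 higher without S1. Hspa8, the constitutive HSP70 gene, was at -1.24 and -1.23, a mean of -1.23 ± 0.06 (adjusted p = 1.91e-05), and 2 subunits of the chaperonin that folds actin and tubulin, Cct6a at -1.5 and -1.55 and Cct5 at -1.54 and -1.21, fell as well. Dnajb11, a chaperone gene of the endoplasmic reticulum, was at -1.03 and -1.53, while Cdc37, the kinase partner of HSP90, was at 0.40 and 0.72 (adjusted p = 0.0739 without S2), with 1 of 2 probes near 0 at 0.10 and 0.04. In kidney Hspa8 was above 0, at 0.77 and 0.77, and Cct6a nearer to 0 than in T cells, at -0.48 and -0.40. Of 45 proteasome genes 5 were higher and 12 lower. Psma4 of the core, at -1.26 and -1.43, and the ATPase gene Psmc3, at -1.22 and -1.22, fell, while 2 other genes of the core rose, Psmb7, a catalytic subunit, at 1.42 and 1.21, and Psmb2 at 0.88 and 1.87. Without S1 the lower calls came to 7 and without S2 the higher calls to 8. Of 87 genes of ubiquitin enzymes 8 were higher and 11 lower, with 4 higher without S1 and 21 lower on the deposited values. Sumo3 was at -0.99 and -1.01, and Ube2t, of DNA crosslink repair, at -2.05 and -1.31, a mean of -1.68 ± 0.19 (adjusted p = 0.000669).

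Genes of the actin cytoskeleton were lower in 17 of 39 (43.6%) and higher in 2, with a median of -0.36, and the lower calls came to 15 without S1 and 16 without S2, with 4 higher without S1. Actg1, cytoplasmic gamma actin, was at -1.32 and -1.34, a mean of -1.33 ± 0.07 (adjusted p = 2.59e-05), and Lcp1, the actin-bundling L-plastin of leukocytes, at -1.21 and -1.25, a mean of -1.23 ± 0.08 (adjusted p = 5.28e-05). Msn, which encodes moesin and links actin to the T cell membrane, was at -1.15 and -1.18, a mean of -1.17 ± 0.08 (adjusted p = 5.81e-05), and at 0.26 and 0.32 in kidney. Outside the naming rule and chosen after their values were seen, Actb, cytoplasmic beta actin, was at -0.67 and -0.69, with 8 probes from -1.20 to 0.10, and Tmsb4x, the actin-sequestering thymosin gene, at -0.73 and -0.72. In NOD T cells Actg1 was above 0, at 0.40 and 0.61. Tagln2, an actin-binding gene, rose to 0.88 and 0.97, a mean of 0.93 ± 0.12 (adjusted p = 0.00113). Of the 39 genes, 14 were lower in T cells than in kidney and 2 higher, and on the deposited values 4 and 2. Probes of one actin can bind RNA of another. Of 95 genes of small GTPases and their regulators 11 were higher and 18 lower, with 10 lower without S1 or without S2. Rab12 was at 1.27 and 1.18, from 1 probe at 2.45 and 2.41 and another at 0.09 and -0.06, and Rab3ip at 1.45 and 1.11, and Arhgap39 was at -2.53 and -2.29 (adjusted p = 0.192 without S1 and 0.148 without S2). Of 49 genes of the lysosome and its proton pump 16 were lower (32.7%) and 3 higher, with 6 lower without S2. Psap, the precursor of the saposins, was at -1.06 and -1.28, a mean of -1.17 ± 0.09 (adjusted p = 9.76e-05).

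Of 38 DNA replication genes 10 were lower and 2 higher, and without S1 the calls came to 5 and 4. After Hells the lowest mean was that of Mcm4, of the replicative helicase, at -1.24 and -1.96, with 2 probes of opposite sign (adjusted p = 0.073 without S2). Gmnn, the licensing inhibitor geminin, was at -1.40 and -0.70, and Pcna, the sliding clamp, at -0.76 and -0.60 (adjusted p = 0.0691 without S1). Of 55 genes of mitosis and cyclins 7 were higher and 10 lower. Cdkn1a, which encodes the cycle inhibitor p21, was at -1.72 and -2.42, a mean of -2.07 ± 0.20 (adjusted p = 0.000351), and Cdkn1b, which encodes p27, went the other way at 2.24 and 0.85. Stmn1, the microtubule destabiliser stathmin, was at -1.76 and -1.58, a mean of -1.67 ± 0.09 (adjusted p = 2.61e-05), while Ccne1, cyclin E1, was at 1.40 and 4.33. Increases and decreases thus stood on both sides of the cycle. Of 18 apoptosis regulators 1 was higher and 6 lower, with 3 lower without S1 and 2 without S2. Bcl2l1, which encodes the survival protein BCL-XL, was at -1.93 and -1.08, a mean of -1.5 ± 0.21 (adjusted p = 0.0017), and Mcl1, another survival gene of lymphocytes, at -1.23 and -1.68 (adjusted p = 0.0731 without S1 and 0.16 without S2). Pdcd4, a translation inhibitor gene, was at 0.52 and 0.46, a mean of 0.49 ± 0.07 (adjusted p = 0.00217).

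Chromatin regulators were lower in 25 of 90 (27.8%) and higher in 8, with 12 lower without S1, and 16 lower and 5 higher without S2. Beside Hdac6 and Hells, Ehmt1, a histone H3 methyltransferase gene, was at -2.57 and -2.06, with a call that ended without either array (adjusted p = 0.117 without S1 and 0.0615 without S2), and Sap18, of the Sin3 complex, at -1.71 and -1.85, a mean of -1.78 ± 0.09 (adjusted p = 1.95e-05). Of 88 genes of the transcription machinery 8 were higher and 15 lower, near the background. Gtf3c3, of TFIIIC, a transcription factor of RNA polymerase III, was at -2.16 and -1.39. Taf3, of TFIID, was at -3.38 and -1.32, with a call that ended without S1. Polr2d, of RNA polymerase II, was higher at 1.11 and 1.08, a mean of 1.10 ± 0.07 (adjusted p = 4.83e-05). Of 65 splicing factor genes 17 were lower (26.2%) and 6 higher, with 2 higher without S2 and none on the deposited values. Sf3b1, of the U2 particle, was at -1.31 and -1.45, a mean of -1.38 ± 0.07 (adjusted p = 2.82e-05), Srsf5 at -1.12 and -1.16, and the kinase gene Clk3 at -1.44 and -0.97. Prpf4b was higher at 0.49 and 0.42. Of 127 solute carrier genes 16 were higher and 22 lower, both near the background. Slc25a17, the peroxisomal carrier, was at 2.22 and 2.28, a mean of 2.25 ± 0.30 (adjusted p = 0.00135), and Slc25a39 at 2.60 and 1.75. Of 56 integrin and matrix genes 3 were higher and 5 lower, with none higher without S1 and 10 lower on the deposited values.

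On the deposited values the higher calls were fewer by more than 1.5 times in 22 of 29 lists with at least 20 tested genes, and the lower calls were more by that factor in 3, which are the ubiquitin, integrin and glycolysis lists. With the mean of the other 4 spleen T cell groups in place of B6 the lower calls were more by that factor in oxidative phosphorylation, the mitochondrial ribosome (12) and mitochondrial import (10). They were fewer in T cell identity (4), adenosine (3) and tRNA synthetases (2). The higher calls were fewer by that factor in 12 of the 29 lists and more in 4. That baseline needs a value on every array of those groups, so 12560 features were tested in place of 14705. Cd247, Ccr7 and Txk of the T cell list and Nt5e of the adenosine list had no value there. Part of the fewer lower and higher calls are thus genes not tested.

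**Figure D5:**
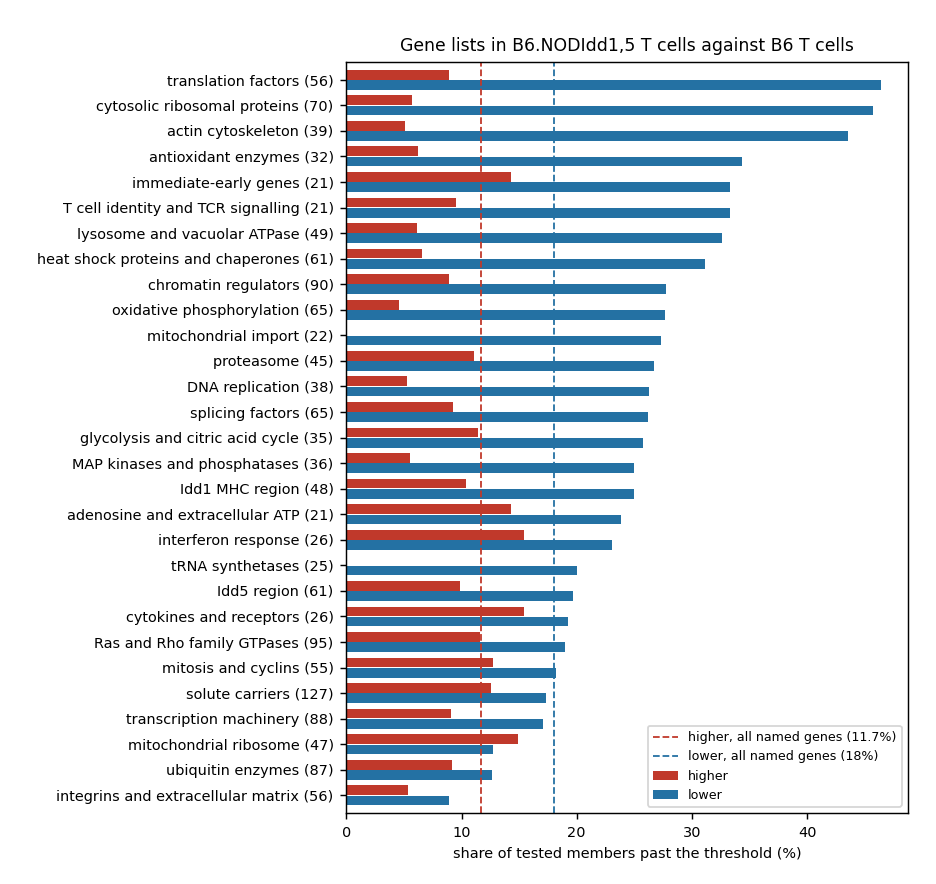
Share of tested members that were higher or lower in B6.NODIdd1,5 T cells than in B6 T cells (x axis, percent) for each gene list with at least 20 tested members (number in brackets), with dashed lines at the shares of all named genes. Translation factors, cytosolic ribosomal proteins and the actin cytoskeleton have the largest lower shares, and their higher shares lie under the dashed line.

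Markers of other cells moved in both directions, and their part in the results above was not tested. Of 13 erythroid markers 7 were lower and 2 higher, with a median of -0.34, and the lower calls came to 2 without S1 and 3 without S2, the higher ones to 1 without S2. Hbb-b1, adult beta globin, was at -1.08 and -1.30 in congenic T cells against 3.33 and 3.29 in NOD T cells, and Slc4a1, the red cell anion exchanger, at -2.33 and -1.33 (adjusted p = 0.192 without S1). Probes of different globins can bind each other's RNA. Of 10 myeloid and neutrophil markers 4 were lower and 2 higher, and without S1 the calls came to 1 and 0. They had S100a9 at -1.22 and -1.24 and Lcn2 at -1.42 and -0.97 (adjusted p = 0.105 without S1), while Ltf was higher at 0.28 and 0.29 (adjusted p = 0.0854 without S1 and 0.0913 without S2) and Csf3r at 0.38 and 0.29 (adjusted p = 0.0773 without S1). Of 6 B cell markers Ighm, the heavy chain of IgM, was higher at 1.55 and 0.65 and Cd24a lower at -0.87 and -0.98, while Cd79b, at -0.27 and 0.44, and Blk, at -0.25 and 1.03, did not pass. Of 4 plasma cell markers 2 were higher, Sdc1 (CD138) at 0.90 and 1.10 and Edem1 at 0.53 and 0.61, and Jchain did not pass at 0.02 and 0.09. The 2 probes of Sdc1 had means over the arrays of 0.27 and 1.73, and the 3 of Edem1 ran from 0.14 to 1.35. Of 6 dendritic cell markers Bst2 was higher and Irf8 and Cd86 lower, the last at -0.73 and -2.25 (adjusted p = 0.242 without S2). Of 4 NK markers Klrk1 was higher at 0.50 and 0.47 (adjusted p = 0.051 without S1), of 12 stromal and endothelial markers Vim was lower at -0.72 and -0.72, and the 1 platelet marker did not pass. Of 6 kidney markers Miox, at 1.15 and 0.70 with probes of opposite sign (adjusted p = 0.126 without S1), and Umod, at 0.52 and 0.46 (adjusted p = 0.143 without S1 and 0.104 without S2), were higher and Lrp2 lower at -0.60 and -0.31 (adjusted p = 0.249 without S1). Of 2 sex-linked genes Eif2s3y, on the Y chromosome, was lower at -0.85 and -0.58 in T cells and at 0.59 and 0.54 in kidney, and Xist was at -0.83 and 0.83 in T cells, opposite in sign on the 2 arrays. No value of a marker is an absolute level, so none shows how many such cells either sample held.

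The change in congenic T cells was then set against the change in congenic kidney. Over 14486 features, 1050 were higher in T cells (7.25%) and 2058 lower (14.2%), 21.5% in all. Among 7931 named genes 526 were higher (6.63%) and 840 lower (10.6%), 17.2% in all. This split turned with the scale, since the deposited medians of kidney were lower than those of T cells: without centring 1133 features were higher and 432 lower. Fewer features passed without 1 of the 2 kidney arrays, which leaves 1 array in that group. Of the top genes, Tcea2 differed by 6.86 ± 0.72 (adjusted p = 0.00136), Msantd1 by 7.07 ± 0.19 (adjusted p = 1.93e-06) and Nt5e by 5.08 ± 0.55 (adjusted p = 0.00278). Among decreases, Nfkbia differed by -1.96 ± 0.11 (adjusted p = 7.17e-05), Hells by -3.08 ± 0.35 (adjusted p = 0.0011) and Entpd1 by -3.35 ± 0.61 (adjusted p = 0.00756). Crkl and Tuba4a did not differ past the threshold, at -0.38 ± 0.37 (adjusted p = 0.558) and -0.07 ± 0.46 (adjusted p = 0.949).

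Set against NOD T cells, which carry the NOD genome throughout, congenic T cells were higher in 1485 of 14451 features (10.3%) and lower in 2147 (14.9%), 25.1% in all. Among 7906 named genes 678 were higher (8.58%) and 1157 lower (14.6%), 23.2% in all. Fewer features passed without the second NOD array, which leaves 1 array in that group. Both groups are ratios to B6 spleen T cells, so the values are given side by side. Cd28 was at -1.45 and -1.29 in congenic T cells and 0.76 and 0.42 in NOD T cells, a difference of -1.96 ± 0.14 (adjusted p = 0.000115). Nfkbia differed by -2.55 ± 0.11 (adjusted p = 1.04e-05) and Hbb-b1 by -4.50 ± 0.18 (adjusted p = 8.58e-06). Atic was low in both, at -1.72 and -2.19 in congenic and -4.79 and -2.51 in NOD T cells, with a difference of 1.70 ± 0.73 (adjusted p = 0.142) that did not pass. Of the Idd1 list 3 genes were higher and 8 lower in congenic than in NOD T cells, and of the Idd5 list 7 and 11.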

How the data were processed

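The values are log2 ratios of the experimental (Cy5) to the B6 (Cy3) channel for 20736 probes, as the authors deposited them; the log2 scale was read from the values and the dyes come per the labels, while the sources used here do not give the image analysis, background correction or normalization. Per the deposited values, 146 cells at the log2 of a ratio of 100000 were taken as missing, 59 of them on the 2 arrays described. Each array was then centred on its median, and probes with exactly 1 gene symbol in GEO's platform annotation were averaged per gene (13033 probes and 8708 genes, 3070 of them with more than 1 probe, and 312 probes with several symbols and 7391 with none were kept as single features). Symbols were updated through RefSeq for 12850 probes. Probe sequences and positions are not used here, and promoter sequences are RefSeq's for GRCm38.p6.

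Means of 6 groups of 2 arrays were fitted in R 4.3.3 by lmFit and eBayes of limma 3.58.1, and the mean of a group against 0 or the difference of 2 groups was tested with Benjamini-Hochberg adjustment over all features with a value on every array of the comparison. The NOD.H2h4 and the 2 bone marrow transfer groups entered the shared estimate of the spread and the baseline of other spleen T cell groups. The naming rule took the 15 genes with the highest and the 15 with the lowest mean past the threshold. It also took up to 4 called members at each end of each gene list. The candidate genes of the 2 intervals and list members whose role defines the list were added. In the counts over the arrays, named genes means all genes with a symbol. The lists of genes, taken from general knowledge of each pathway or cell type, the members and the tests were chosen with earlier results of these data known. Lists are described by counts and medians with no set test. Alternatives were no centring, centring over features, scaling, a running median along the probe order, quantile normalization, complete features, the highest values kept, the median over probes, spleen arrays alone, the 2 arrays alone, the mean of the other spleen groups as baseline, robust eBayes, a replicate block and each array left out. The fit was also run on simulated data with normal noise, in which a feature had the same spread in every group. In these arrays the spread differs, with 14.5% of features over 1 apart in the congenic T cell pair and 1.37% in the NOD pair. The simulation thus cannot show how far the calls here hold.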

Additional observations from a re-analysis of the deposited data

Results flagged for a closer look

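For each gene named above with values in both tissues, the change in congenic T cells was compared with the change in congenic kidney in the limma fit. A gene is given here where that difference passed the adjusted threshold, which was the case for 108 of 192 genes, 36 with a positive and 72 with a negative difference. Over all 7931 named genes with values in both tissues 17.2% passed, 6.63% higher and 10.6% lower. Many of the 192 were chosen by T cell values that are part of the difference, so the 2 shares cannot be compared. Each value is the mean log2 ratio to B6 in T cells minus that in kidney, over 2 arrays each. On the deposited values without centring 34 of the 36 positive and, among the 66 negative ones of genes under the naming rule, 38 differences were past the threshold. Many of the T cell values themselves were chosen for being large, so the sizes are a description.

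Among the Idd1 and Idd5 intervals, the difference was positive for Orc2 (1.73) and Aamp (0.80), and it was negative for Rgl2 (-1.46), Skiv2l (-1.28), Bzw1 (-1.25), Ankzf1 (-1.10), Clk1 (-1.0), Arpc2 (-0.87) and Neu1 (-0.76). Among T cell signalling, NF-kappaB, immediate-early and MAP kinase genes, the difference was positive for Txk (2.44), Tnip1 (1.85) and Jun (0.97), and it was negative for Nfkbia (-1.96), Cd200 (-1.36), Btg1 (-1.25), Gadd45g (-0.80), Ptpn6 (-0.61) and Dusp1 (-0.48). Among adenosine, cytokine, interferon, chemokine and other Idd candidate genes, the difference was positive for Nt5e (5.08), Nt5c2 (2.62), Ccl9 (2.59) and Nrp1 (1.54), and it was negative for Entpd1 (-3.35), Ifitm3 (-1.26), Ampd3 (-1.20), B2m (-0.97) and Ada (-0.59). Among ribosomal proteins and translation, the difference was positive for Mrpl57 (4.18) and Eif2b1 (1.13), and it was negative for Eef1a1 (-1.67), Mrpl35 (-1.34), Rpl3 (-1.13), Eif3c (-1.13), Rpl5 (-1.11), Rpl7a (-1.05), Rpl4 (-1.05) and Eif4ebp2 (-0.72). Among energy metabolism, mitochondrial import and antioxidant enzymes, the difference was positive for Ndufc2 (2.83), Aco1 (1.93) and Gpx1 (0.72). It was negative for Ndufb9 (-2.18), Txnrd1 (-2.18), Ldhb (-2.11), Gpx3 (-1.71), Ndufv1 (-1.54), Pgam1 (-1.54), Tpi1 (-1.5), Sdhd (-1.42), Timm17a (-1.33), Gsr (-1.23) and Uqcrc2 (-1.13). Among chaperones, the proteasome and ubiquitin enzymes, the difference was positive for Psmb2 (1.66) and Psmb7 (0.84), and it was negative for Hspa8 (-2.01), Cct5 (-1.51), Psma4 (-1.20), Psmc3 (-1.17), Cct6a (-1.08), Sumo3 (-1.03) and Dnajb11 (-1.0). Among the actin cytoskeleton, small GTPases, the lysosome and transporters, the difference was positive for Slc25a17 (2.34), Slc25a39 (2.25), Rab3ip (1.40) and Rab12 (1.03), and it was negative for Psap (-1.49), Msn (-1.45), Actg1 (-1.28), Tmsb4x (-0.91), Actb (-0.90) and Lcp1 (-0.71). Among the cell cycle, apoptosis, chromatin, transcription and splicing, the difference was positive for Tcea2 (6.86), Ccne1 (2.81) and Polr2d (0.77). It was negative for Hells (-3.08), Mcm4 (-2.02), Mcl1 (-1.95), Sap18 (-1.39), Bcl2l1 (-1.27), Gtf3c3 (-1.18), Cycs (-1.12), Stmn1 (-1.06), Srsf5 (-0.98), Sf3b1 (-0.93), Clk3 (-0.89) and Pcna (-0.64). Among markers of other cells and sex-linked genes, the difference was positive for Bst2 (1.5), Sdc1 (0.63) and Edem1 (0.51), and it was negative for Irf8 (-1.37), Lrp2 (-1.33), Eif2s3y (-1.28), Hbb-b1 (-1.13), Cd24a (-1.08), S100a9 (-0.72) and Vim (-0.63). Among genes in none of the lists, the difference was positive for Msantd1 (7.07), Commd9 (5.24), Fam76b (4.97), Tanc1 (4.81), Pxdn (4.80), 5430401F13Rik (4.60), Nxph3 (3.75), Snx14 (3.63), Synrg (3.42) and Atxn2 (3.39). It was negative for Pigf (-4.57), Srpx (-3.15) and Tbc1d19 (-1.42). In kidney Pigf lay above B6 on both arrays while it lay below B6 in T cells. Cd200, Hspa8, Msn and Eef1a1 were among other genes with opposite signs in the 2 tissues after centring. The deposited medians of the kidney arrays were -0.41 and -0.51, so a kidney sign near 0, as for Msn, depends on the centring. Why the tissues differ was not tested.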

How the results depend on the processing

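Of 265 genes taken by the naming rule and past the threshold against B6, 137 kept direction and call in every alternative with a value. Not all of the 265 are printed above. The alternatives include fits without S1 or S2, in which the congenic group holds 1 array. Their p comes from the spread of the other groups and cannot show whether S1 and S2 agree. Commd9, at 2.35 and 7.75, is among the 137. The fit on the 2 arrays alone is not counted among these alternatives. In that fit 0 features were higher and 0 lower, 0 in all, at the adjusted threshold, and 4673 of 14705 had an unadjusted p under 0.05. Without S1 the call of 83 genes ended, without S2 that of 72, and 38 lost it under both. Leaving out 1 of the 12 arrays in turn gave 1565 to 2727 higher and 1645 to 2887 lower features against B6, 3210 to 5614 in all. For T cells minus kidney it gave 495 to 1346 higher and 1062 to 2513 lower, 1568 to 3859 in all, and for congenic minus NOD T cells 614 to 1889 higher and 1037 to 2750 lower, 1651 to 4639 in all. On the deposited values 1039 features were higher against B6, 432 were lower in T cells than in kidney (1565 in all), and 725 were higher and 1374 lower in congenic than in NOD T cells (2099 in all). With arrays scaled to the same median absolute deviation the last comparison gave 2245, 3336 and 5581. The difference between congenic and NOD T cells turned its sign for Hspa8 with scaled arrays (0.0659) and with quantile normalization (0.24), for Tnip1 (-1.18) and Lcp1 (0.12) with quantile normalization, for Mdc1 (-0.0453) with a running median along the probe order, and for Arpc4 (-0.0406) with the median of its probes. Against the mean of the other 4 spleen T cell groups in place of B6, Trim25 (-0.016), Rpl39 (-0.0778), Gpx1 (-0.91), Edem1 (-0.0272) and Ltf (-0.75) turned. Why these turned was not tested. The replicate numbers mark nothing that the labels name, and deviations of same-numbered arrays from their group means correlated with those of the congenic T cells at -0.02 to 0.02. With the number as a replicate block 2173 features were higher and 2227 lower against B6, 997 and 1927 in T cells minus kidney, and 1401 and 1992 in congenic minus NOD T cells. Spot intensities are not analysed here, so the signal over background behind each ratio is unknown, and 2 arrays a group limit the precision.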
